A study of Homo sapiens with 6 samples.

Results

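Cytosolic ribosomal protein (RP) genes encode the proteins of the large and the small ribosomal subunit. The members were the protein-coding genes of the expression table named RPL or RPS with a number and an optional A, X, Y or L ending, together with RPLP0, RPLP1, RPLP2 and RPSA. Pseudogenes and the kinases whose names start with RPS6K were left out. The rule found 70 of the 10542 genes in the table, 43 of the large and 27 of the small subunit, and 6 of the 70 were paralogs of another RP gene. GENCODE 29 has 87 protein-coding genes with such names. The other 17, among them RPL5, RPL17, RPL22 and RPL23A, were not analysed here.

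The cells were DU145, a long-established line from a human prostate cancer. DU145-TFEB cells were infected with a lentivirus that overexpresses TFEB, a transcription factor of lysosomal and autophagy genes, and DU145-Vector cells with a blank vector lentivirus. Both were stable lines selected with puromycin, so each group is a selected population of transduced cells, and no endogenous TFEB was removed. Polyadenylated RNA of 3 libraries per group was sequenced, and neither the labels nor the methods say whether the 3 came from separate cultures. P-values therefore measure the spread between these libraries, which may be technical.

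A ribosome needs its proteins in nearly equal numbers, and cells adjust them together. Most RP mRNAs start with a C followed by a run of C and T, the 5′ terminal oligopyrimidine (TOP) tract. Through this tract and the protein LARP1, the kinase complex mTORC1 controls how fast the mRNAs are translated and how long they last. TFEB is itself kept out of the nucleus when mTORC1 is active. It binds DNA at elements that contain CACGTG.

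The normalized count is the number of reads on a gene divided by 1 size factor per library. The libraries held 13999961 to 16511477 reads on the listed genes, and 68 of the 70 members had at least 100 reads in every library. As labelled, the DU145-TFEB libraries had 6325, 6301 and 6036 normalized counts of TFEB, against 127.4, 123.9 and 125 with the blank vector. Of 12 cell type markers looked up, 3 were listed, the epithelial keratins KRT8 and KRT18 and the mesenchymal filament protein VIM. All 3 were lower in DU145-TFEB, with log2 fold changes of −0.68, −0.78 and −0.75, and KRT8 stood at 14610 to 20810 normalized counts against 24610 to 28110. Their part in the results on RP genes was not tested. The 9 other markers were not analysed here. Every gene in the table had been selected by its authors for a difference between these same libraries, and the smallest absolute log2 fold change among them was 0.196. That a member passed the test is thus no result by itself, and only the direction and the size of its change are described.

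With the authors' size factors, nearly all of the 70 listed RP mRNAs were higher in DU145-TFEB than in DU145-Vector cells, by a modest amount. Fewer were higher once trends with GC content and length were removed, as given below. With limma on log2(normalized count + 1) and Benjamini-Hochberg adjustment over all listed genes, 67 members were higher in DU145-TFEB (adjusted p below 0.05), which was 95.7% of the members against 47.6% of all listed genes. The remaining 3 members, RPL36A, RPL22L1 and RPL36AL, were lower, against 52.4% of all listed genes. The median log2 fold change was 0.60 (quartiles 0.49 and 0.72), a fold of 1.52, and that of all listed genes was −0.36. No member passed the study's fold change cutoff of 1.5 on the log2 scale, which 2.54% of all listed genes passed upwards and 16.5% downwards. The values of the 3 libraries of each group did not overlap for any of the 70 members, nor for 99.3% of all listed genes. In these bulk samples, a change in the RNA of each cell and a change in the mix of cells cannot be told apart.

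**Figure D1:**
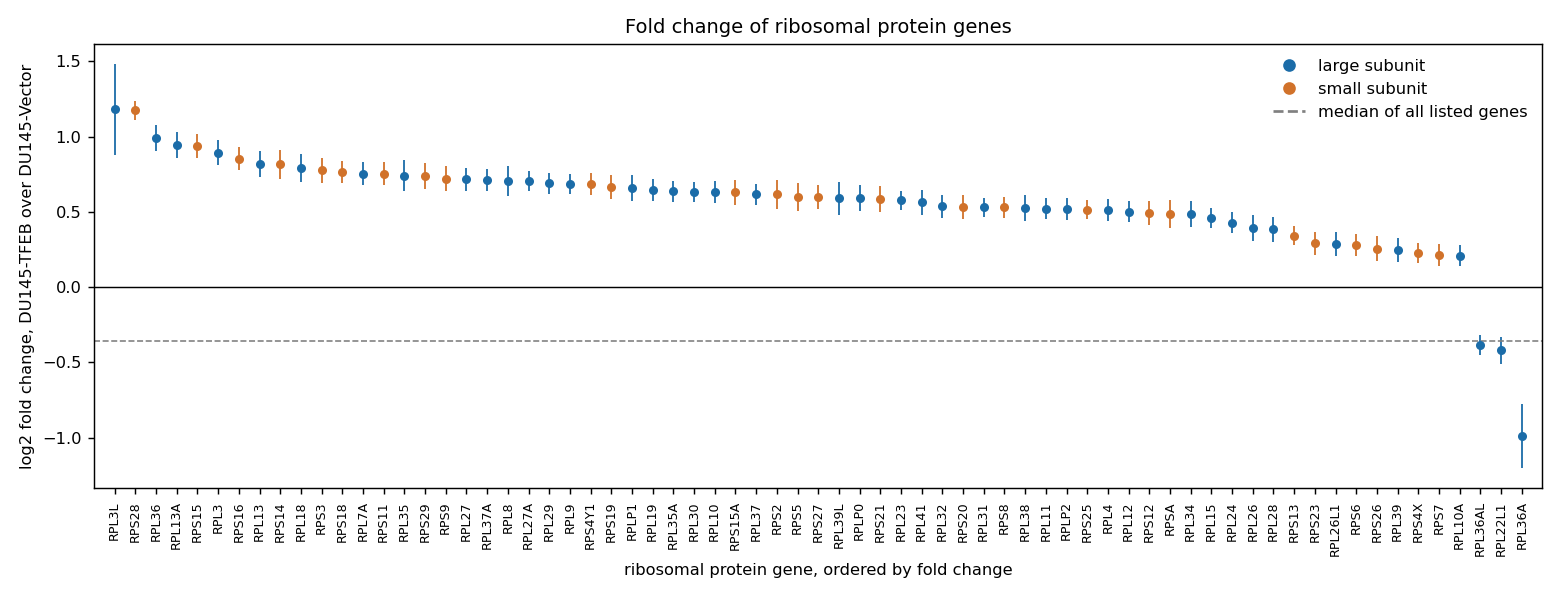
Log2 fold change of 69 of the 70 RP genes (y axis, DU145-TFEB over DU145-Vector, n = 3 libraries per group), ordered from highest to lowest on the x axis. Points are limma estimates on log2(normalized count + 1), bars are standard errors and the dashed line is the median of all listed genes at −0.36. The points run from 1.18 for RPL3L to −0.99 for RPL36A, and 66 of 69 lie above 0.

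The RP genes took a larger share of the reads on listed genes in the TFEB cells. They took 10.57%, 10.94% and 9.98% of these reads in DU145-TFEB and 7.25%, 6.52% and 7.05% in DU145-Vector. All 3 TFEB libraries stood above all 3 Vector libraries, with means of 10.5% ± 0.483 and 6.94% ± 0.375 (SD, n = 3). The share is one of listed genes only and not of the whole library. Within the DU145-TFEB group, library 2 held the highest value for 55 of the 66 rising members other than RPS4Y1, and library 3 the lowest for 60. Within the DU145-Vector group, library 2 was lowest for 53. RP genes thus moved together between libraries of 1 group as well, by less than between groups. The other listed genes were not counted in this way, so the pattern is not shown to be particular to RP genes.

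**Figure D2:**
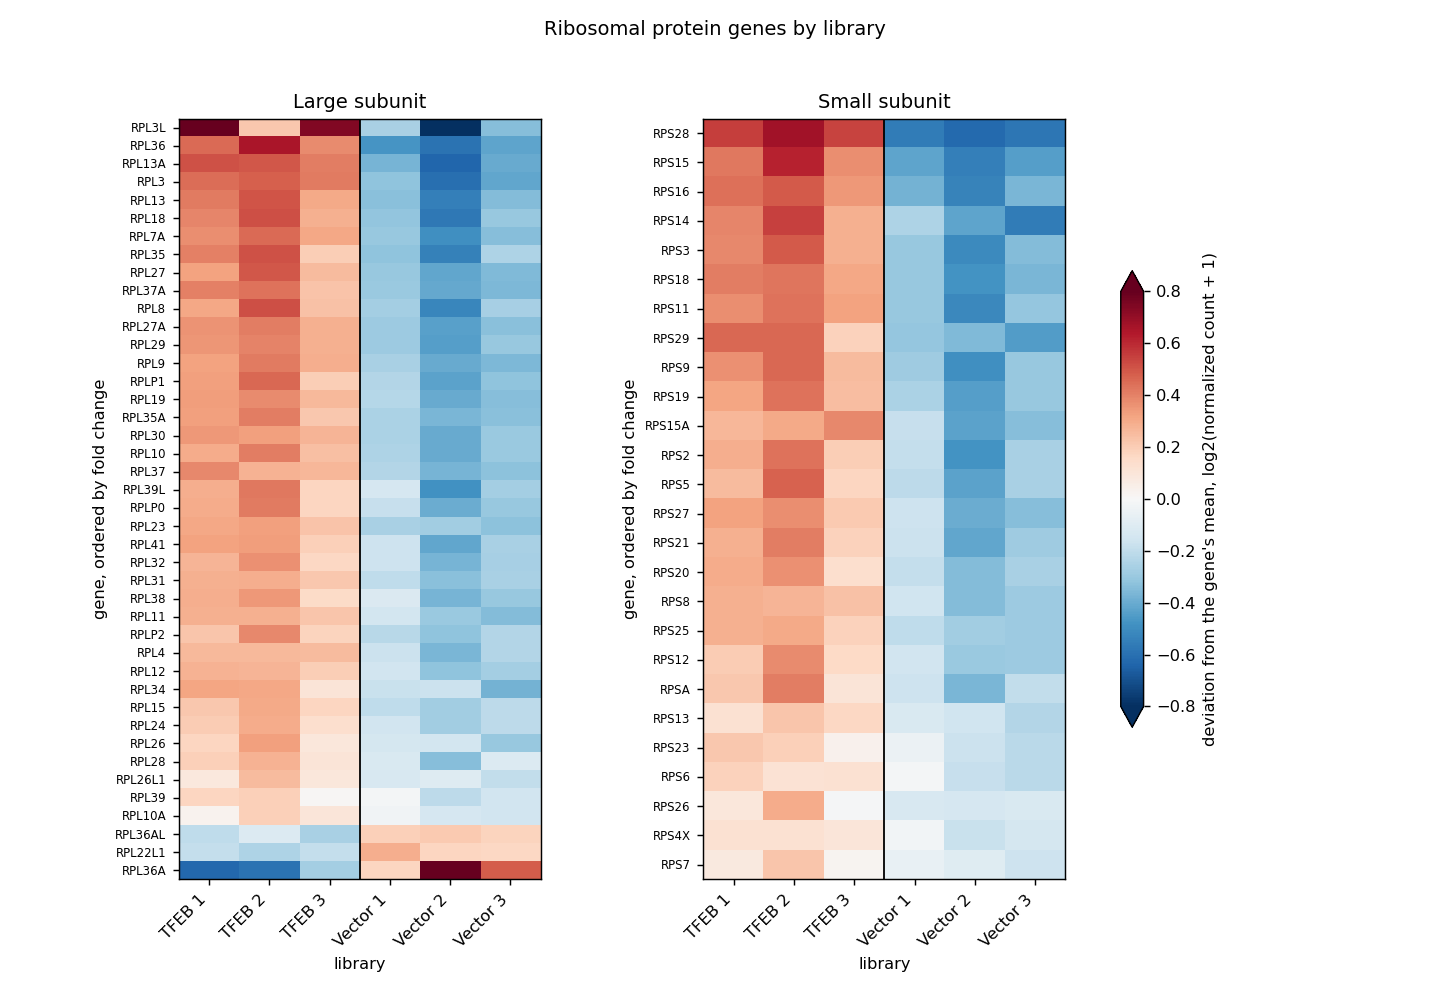
Deviation of log2(normalized count + 1) from each gene's mean over the 6 libraries (colour), for 68 RP genes in rows and libraries in columns, with the large subunit on the left and the small subunit on the right. RPS4Y1 is not drawn. Rising genes are red in the 3 TFEB columns, except RPS26 in TFEB library 3, and blue in the Vector columns, the palest rows being those of RPS7, RPL10A and RPS4X, and the pattern is inverted in the bottom 3 rows of the large subunit.

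The start of the mRNA carries the TOP tract. RefSeq start sites (GRCh38.p14) were found for 57 of the 70 members by symbol. The first base was a C followed by at least 4 C or T in 41 of the 57 (71.9%), against 5.14% of 27305 genes in the same table. The start windows below, 15 bases before and 15 bases from the start site on, are those of RP genes at both ends of the fold change order and of a pair of other TOP genes that moved in opposite directions. Capitals mark the unbroken run of C and T that begins at the first transcribed base.
RPL36 (chr19:5690280-5690309, + strand): ccgcgcggcgccagcCCTTCCgccacggcc
RPL13A (chr19:49487593-49487622, + strand): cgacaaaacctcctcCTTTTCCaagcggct
RPS28 (chr19:8321481-8321510, + strand): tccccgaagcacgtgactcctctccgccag
RPL10A (chr6:35468386-35468415, + strand): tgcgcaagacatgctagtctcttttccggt
RPL36AL (chr14:49620612-49620641, − strand): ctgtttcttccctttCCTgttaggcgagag
RPL22L1 (chr3:170870181-170870210, − strand): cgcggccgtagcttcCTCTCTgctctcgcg
RPL36A (chrX:101390996-101391025, + strand): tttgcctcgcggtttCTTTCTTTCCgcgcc
EEF2 (chr19:3985449-3985478, − strand): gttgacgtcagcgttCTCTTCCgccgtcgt
NPM1 (chr5:171387834-171387863, + strand): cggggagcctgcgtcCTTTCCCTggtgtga

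The fold changes of members with and without this start overlapped. Their median log2 fold changes were 0.59 for the 41 with it (−0.99 to 0.99) and 0.52 for the 16 without it (−0.38 to 1.18). RPL36 and RPL13A, which carry a tract, rose, and so did RPS28, whose annotated start here is an A. RPL36A, with the longest run of the 9 windows at 10 bases, and RPL22L1 were lower. The motif CACGTG, which reads the same on both strands, lay within 250 bases before to 50 bases after the start of 4 of the 57 members (7.02%), RPL13A, RPL19, RPS19 and RPS28, against 8.77% of all genes. In RPS28 it falls in the window above.

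Both subunits rose to a similar extent with the authors' size factors. Of the 43 large subunit genes 40 were higher and 3 lower (median log2 fold change 0.59). All 27 small subunit genes were higher (median 0.60). Of all listed genes 47.6% were higher and 52.4% lower. The large subunit values were more spread, with an SD over genes of 0.40 against 0.23. They include RPL36A at −0.99 and RPL3L at 1.18, both with few reads, and the paralogs RPL22L1 at −0.42 and RPL36AL at −0.38. The SD without these genes was not computed. In each library, the median deviation of the large subunit genes minus that of the small subunit genes was 0.016, −0.045 and 0.020 in DU145-TFEB and −0.039, −0.002 and −0.009 in DU145-Vector. These values overlapped between the groups. The ratio of large to small subunit reads was 1.634, 1.608 and 1.645 in DU145-TFEB and 1.590, 1.580 and 1.617 in DU145-Vector, also with overlap. To see how far values depended on base composition and length, the trend with GC content and with either the gene length of the table (gene length correction) or the length of the principal transcript (transcript correction) was removed from each library. The medians of the large and the small subunit were 0.52 and 0.55 with the gene length correction and 0.36 and 0.16 with the transcript correction.

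RPS28, which lines the path of the mRNA out of the small subunit, was among the members with the largest rise. It stood at 12910, 14050 and 12820 normalized counts in DU145-TFEB and 5972, 5740 and 5894 in DU145-Vector. Its log2 fold change was 1.18 ± 0.0648 (limma adjusted p = 2.37e-06), with little spread in either group. RPL36, of the large subunit, had 9613, 11040 and 9096 normalized counts in DU145-TFEB and 5045, 4654 and 5224 in DU145-Vector, a log2 fold change of 0.99 ± 0.0856. RPL13A, which also acts in a complex that silences inflammatory mRNAs, had 53610, 53200 and 50050 against 29050, 24220 and 28420, a log2 fold change of 0.95 ± 0.0840. These 3 genes lie on chromosome 19 and each kept a log2 fold change above 0 with the gene length correction (0.49, 0.16 and 0.27 in the order given) and the transcript correction (0.66, 0.10 and 0.41), though RPL36 lost the call with the latter (limma adjusted p = 0.151).

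At the lower end of the rising genes stood RPL10A, RPS7, RPS4X, RPL39 and RPS26. RPL10A forms the stalk beside the site where the empty tRNA leaves. Its normalized counts were 15220, 17070 and 15980 in DU145-TFEB and 14630, 13640 and 13470 in DU145-Vector. The groups were separated by the gap from 14630 to 15220, and the log2 fold change was 0.21 ± 0.0702 (limma adjusted p = 0.0155). Its direction turned, to −0.11 under quantile normalization, −0.21 with the gene length correction and −0.20 with the transcript correction. RPS7 had 12580, 13930 and 12080 against 11460, 11150 and 10610, a log2 fold change of 0.21 ± 0.0734 (limma adjusted p = 0.0171), and it was −0.02, 0.74 and −0.28 under the same settings. Without DU145-Vector library 3, RPL10A and RPS7 lost the call (limma adjusted p = 0.0635 and 0.0717).

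RPL36A, RPL22L1 and RPL36AL were the members that were lower. RPL36A and RPL36AL encode nearly the same protein, which sits at the exit site for tRNA. RPL36A was a low gene, at 45.25, 46.41 and 58.15 normalized counts in DU145-TFEB and 79.40, 125.8 and 99 in DU145-Vector, from 43 to 129 reads per library. Its log2 fold change was −0.99 ± 0.212 (limma adjusted p = 0.00153), and it was −0.83 with the transcript correction (limma adjusted p = 0.00309) and −0.20 with the gene length correction (limma adjusted p = 0.36). The annotation has a read-through gene, RPL36A-HNRNPH2, over the same exons, which was not analysed here. RPL36AL was far higher, at 4654, 4970 and 4472 against 6118, 6203 and 6064, with a log2 fold change of −0.38 ± 0.0653 (limma adjusted p = 0.00039). RPL22L1, the paralog of RPL22, had 425.1, 409.5 and 424.7 against 595, 548.1 and 544, with −0.42 ± 0.0905 (limma adjusted p = 0.0016). The directions of RPL36AL and RPL22L1 turned to 0.71 and 0.51 with the gene length correction and to 0.14 and 0.38 with the transcript correction, and with size factors estimated by DESeq2 over the listed genes both lost the call (limma adjusted p = 0.0979 and 0.0912).

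The paralogs were compared with the genes they resemble. RPL3 and RPL3L both rose. RPL3, which reaches into the peptidyl transferase centre, had 55550, 56870 and 54510 normalized counts in DU145-TFEB and 32610, 26920 and 30660 in DU145-Vector, a log2 fold change of 0.89 ± 0.0821. RPL3L, known for its restriction to heart and skeletal muscle, had 56.82, 37.31 and 53.99 against 26.47, 13.65 and 25, which rest on 14 to 54 reads, and a log2 fold change of 1.18 ± 0.301 (limma adjusted p = 0.00403). RPL3L lost the call with the gene length correction (0.46, limma adjusted p = 0.162) and the transcript correction (0.60, limma adjusted p = 0.0812). Their coding sequences matched at 918 of 1221 aligned bases, and 26 bases was the longest shared run.

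RPL39 and RPL39L encode a very small protein of the tunnel through which the growing peptide leaves, and RPL39L is known from the testis. RPL39 stood at 5034, 5097 and 4499 normalized counts against 4427, 3866 and 4018, a log2 fold change of 0.25 ± 0.0793 (limma adjusted p = 0.0121). The groups came close, at 4499 and 4427. RPL39L stood at 1145, 1251 and 1053 against 852.8, 669.1 and 775, with 0.59 ± 0.109 (limma adjusted p = 6.58e-04), which was 0.17 with the transcript correction (limma adjusted p = 0.116). Their coding sequences, from the principal GENCODE 29 transcripts (GRCh38), are shown because they differ at 8 of 153 bases, in capitals, and share a run of 44 bases, so that short reads may not separate them from each other. RPL39 lies at chrX:119786504-119791643 and RPL39L at chr3:187120948-187180908, both on the − strand.
RPL39: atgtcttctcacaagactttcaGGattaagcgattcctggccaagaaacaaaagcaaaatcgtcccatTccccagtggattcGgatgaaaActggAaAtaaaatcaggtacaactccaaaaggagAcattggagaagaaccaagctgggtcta
RPL39L: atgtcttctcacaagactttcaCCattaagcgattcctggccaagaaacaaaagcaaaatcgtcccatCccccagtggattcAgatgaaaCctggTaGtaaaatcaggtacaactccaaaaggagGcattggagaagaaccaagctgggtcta

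RPL26 and RPL26L1 had similar counts. RPL26 stood at 1565, 1743 and 1475 normalized counts against 1256, 1254 and 1125, a log2 fold change of 0.39 ± 0.0883. RPL26L1 stood at 1261, 1413 and 1264 against 1087, 1103 and 1037, with 0.29 ± 0.0796 (limma adjusted p = 0.00638), which was 0.16 with the transcript correction (limma adjusted p = 0.0647). Neither overlapped between the groups, nor did 99.3% of all listed genes. RPL26 shares its strand with another annotated protein-coding gene that was not analysed here, and so does RPS15A, at 1272 to 2226 normalized counts. RPS4X rose by 0.23 ± 0.0659 on the log2 scale, from 11310, 10110 and 10400 in DU145-Vector to 12470, 12460 and 12270, and its Y-linked paralog RPS4Y1 by 0.68 ± 0.0736. Coding identity was 84.1% between RPL26 and RPL26L1, 82.1% between RPS4X and RPS4Y1 and 89.9% between RPL36A and RPL36AL.

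Genes of single parts of the ribosome rose with the rest. The P stalk recruits the elongation factors to the large subunit, and its proteins RPLP0, RPLP1 and RPLP2 and their base RPL12 rose by 0.59, 0.66, 0.52 and 0.50 on the log2 scale. RPLP1 went from 22350, 19540 and 21040 normalized counts in DU145-Vector to 33060, 36240 and 30240 in DU145-TFEB. With the gene length correction, RPLP0 and RPLP1 remained higher (0.26 and 0.38), while RPL12 (0.15) and RPLP2 (−0.09) did not pass the test. With the transcript correction RPLP1 had 0.61, RPLP0 and RPL12 had −0.03 and −0.02, and RPLP2 passed the test in the opposite direction (−0.34, limma adjusted p = 3.68e-04). RPL11, which with RPL5 carries a ribosomal RNA and binds MDM2 when ribosome assembly fails, went from 11200, 10100 and 9753 to 15050, 15060 and 14410, a log2 fold change of 0.52 ± 0.0711.

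Around the exit of the peptide tunnel, 5 of 7 proteins were analysed. RPL35, RPL19, RPL31, RPL26 and RPL39 had log2 fold changes of 0.74, 0.65, 0.53, 0.39 and 0.25, and RPL35 had 0.19 with the gene length correction (limma adjusted p = 0.0541). With the transcript correction RPL35 turned to −0.12 and RPL19 lost the call at 0.06 (limma adjusted p = 0.446). Along the mRNA channel of the small subunit, RPS28, RPS3, RPS2, RPSA and RPS26 had 1.18, 0.77, 0.62, 0.49 and 0.25. RPS3, at the mRNA entry and also a DNA repair protein, had 48510, 52130 and 45270 normalized counts in DU145-TFEB and 30060, 26030 and 29200 in DU145-Vector. RPS26, which touches the mRNA upstream of the start codon, had 8868, 10250 and 8287 against 7635, 7589 and 7652, and DU145-TFEB library 2 stood above the other TFEB libraries. RPS2, also of the entry, turned to −0.13 with the gene length correction (limma adjusted p = 0.138) and to −0.18 with the transcript correction (limma adjusted p = 0.0391). RPS26 had 0.19 with the latter (limma adjusted p = 0.0529).

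RPS14 and RPS19, whose loss causes anaemias of failed ribosome assembly, rose by 0.82 ± 0.0971 and 0.66 ± 0.0793 on the log2 scale. RPS19 lost the call with the gene length correction (0.12, limma adjusted p = 0.147) and the transcript correction (0.10, limma adjusted p = 0.202), and RPS14 did not (0.66 and 0.92). RPS14 stood at 25740, 28630 and 23900 normalized counts against 16550, 14640 and 13300. RPS23, a protein of the decoding centre, rose by 0.29 ± 0.0759 and RPS6, the substrate of the S6 kinases, by 0.28 ± 0.0722. RPS6 stood at 18290, 17430 and 17520 against 15910, 14160 and 13860. Both were among the smaller changes, and RPS6 turned to −0.07 under quantile normalization. The groups of both stood apart, as did those of 99.3% of all listed genes.

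Levels between genes were compared per kilobase of gene length as deposited, which joins all exons of a gene and ranged from 746 to 9845 bases. RPL8, RPL41 and RPS27 were the most abundant, at means of 35520, 29480 and 29000 normalized counts per kilobase in DU145-TFEB and 21750, 20000 and 19150 in DU145-Vector. RPL8 supports the peptidyl transferase centre and RPL41 is a very short peptide between the subunits. RPL3L, RPL36A and RPL22L1 were the least abundant, at 17.9, 12.6 and 180.5 against 7.87, 25.58 and 241.8. The level of RPL36A is uncertain, since a read-through gene is annotated over its exons. Divided instead by the length of the principal transcript (344 to 7686 bases), RPS27, RPS18 and RPL8 stood at 83600, 77120 and 73660 in DU145-TFEB. RPL41 then stood at 45890. The order of the top genes thus depended on the length used. In absolute terms RPL8 had 74110, 85600 and 70330 normalized counts against 49580, 41620 and 49710, a log2 fold change of 0.71 ± 0.101, which turned to −0.11 with the gene length correction (limma adjusted p = 0.231) and −0.15 with the transcript correction (limma adjusted p = 0.08).

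The fold change of RP genes went with the GC content of their transcripts, as it did across the table. Over the 70 members Pearson's r between GC content and log2 fold change was 0.62 and Spearman's rho 0.64, and over 10467 other listed genes 0.72 and 0.73. Genes of the same libraries are not independent, and these values are descriptions. The 23 members of lowest GC content (39.2% to 48.2%) had a median change of 0.43 on the log2 scale, while the other listed genes in this range had −1.09 and 9.67% of them were higher. The middle 23 members (48.6% to 53.2%) had 0.59 against 0.29, and the 24 of highest GC content (53.8% to 62.8%) had 0.73 against 0.58. The gap between the medians was thus widest at low GC content. These sets share a range of GC content but were not matched gene by gene, and not by length. In the lowest range the median GC content was 45.67% for RP genes and 43.38% for the other genes. In the highest range it was 57.26% and 58.41%. Spearman's rho between log2 fold change and gene length was −0.34 over the other listed genes and 0.10 over RP genes. With the length of the principal transcript it was −0.40 and 0.04. RPL9 and RPL31, at 42.5% and 42.3% GC, rose by 0.68 and 0.53, by 1.78 and 1.69 with the gene length correction, and by 1.67 and 0.83 with the transcript correction. The part of base composition and of length in the rise of the RP genes was not tested beyond these values.

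**Figure D3:**
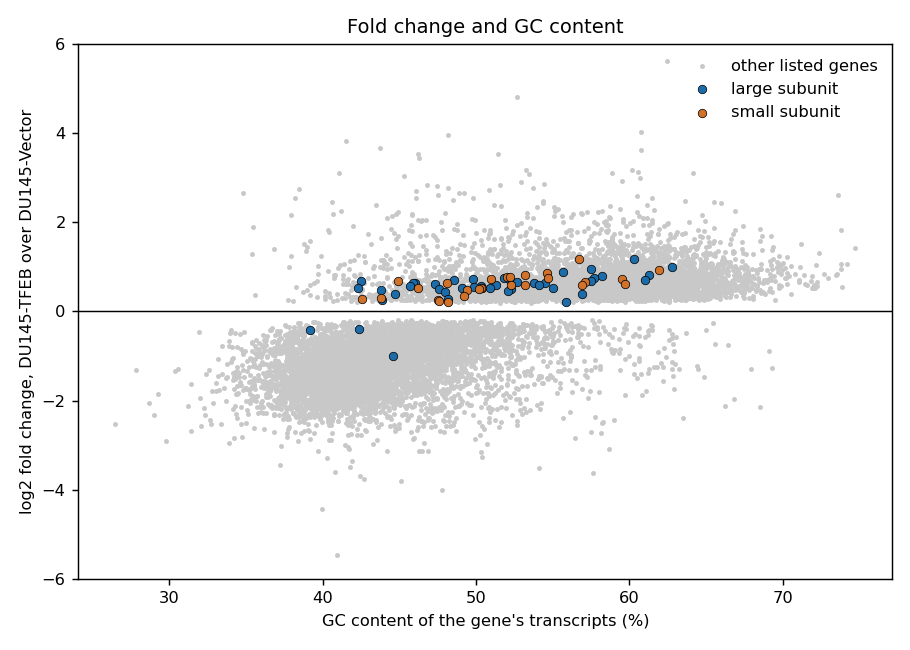
Log2 fold change (y axis, DU145-TFEB over DU145-Vector) against GC content of the transcripts in percent (x axis) for large subunit genes, small subunit genes and the other listed genes, 1 point per gene. The smallest absolute log2 fold change of a listed gene is 0.196, and up to 48.2% GC 20 of 23 RP genes lie above 0 where most other genes lie below.

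Chromosome 19 holds 12 of the 70 members. The 12 were all higher, at a median of 0.82 on the log2 scale and a median GC content of 57.3%, and the 58 members elsewhere had 0.57 and 50.1%. Of the 827 other listed genes of chromosome 19, 77.0% were higher, and they had a median of 0.62 and a GC content of 59.7%, against −0.46 and 48.1% for those of other chromosomes. With the gene length correction, the medians were 0.18 for RP genes of chromosome 19 and 0.63 for those elsewhere, and with the transcript correction 0.09 and 0.31. The order of the 2 sets was thus reversed by both corrections.

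The size of the rise depended on how the libraries were scaled. The median of all listed genes was −0.36 with the authors' size factors, −0.12 with size factors of DESeq2 over the listed genes and −0.03 under quantile normalization. The median of RP genes was 0.60, 0.84 and 0.31 in the same order. It thus lay 0.96, 0.96 and 0.34 above that of all genes. Quantile normalization left 56 members higher and 2 lower, and 47% of all listed genes were higher. With the gene length correction, 55 were higher and 1 lower, with a median of 0.53, and 32.8% of all listed genes were higher. With the transcript correction, 40 were higher and 5 lower, with a median of 0.28, and 28.6% of all listed genes were higher.

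**Figure D4:**
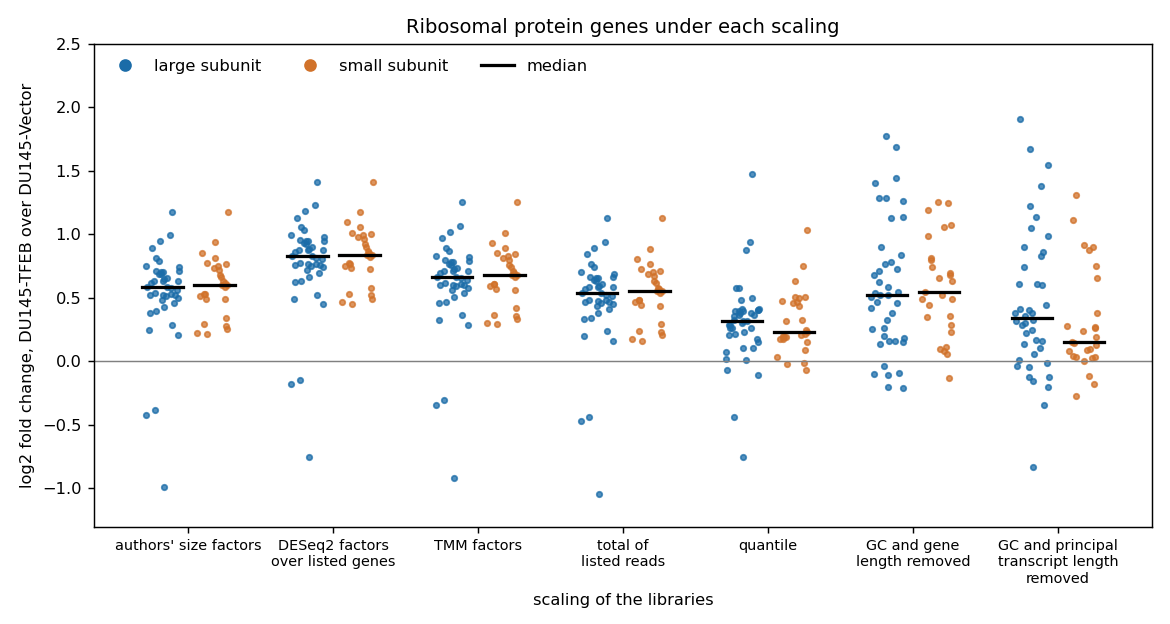
Log2 fold change of 69 RP genes (y axis) under 7 ways of scaling the libraries (x axis), with the large and the small subunit side by side and black bars at the medians of the points drawn. The medians of both subunits stay above 0 in all 7, and the points spread most widely where the GC and length trend was removed.

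Other genes known for TOP transcripts moved in both directions. The list of 36 such genes outside the members came from general knowledge and holds several non-coding host genes of small RNAs. Of these, 30 were analysed, of which 15 were higher, a share close to the 47.6% of all listed genes, and 15 lower, and the median of their log2 fold changes was 0.03. RefSeq starts were found for 19 of the 30, and 15 of the 19 began with a C followed by at least 4 C or T. FAU, a fusion gene that encodes an RP behind a ubiquitin-like protein, rose by 0.65 ± 0.0909, and turned to −0.08 with the gene length correction and −0.20 with the transcript correction. RACK1, a scaffold on the small subunit, went from 16250, 14240 and 15420 normalized counts to 23790, 25050 and 22640, a log2 fold change of 0.64 ± 0.0741 that was 0.13 with the transcript correction (limma adjusted p = 0.0765). EEF2, which moves the ribosome along the mRNA, rose the most, from 38560, 32180 and 38680 to 86440, 82850 and 82350 (1.21 ± 0.0863, limma adjusted p = 4.17e-06). TPT1, a small growth-related protein, rose by 0.29 ± 0.0615.

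NPM1, a nucleolar chaperone of ribosome assembly, was lower. It stood at 9436, 10720 and 9818 normalized counts in DU145-TFEB and 15680, 16710 and 14650 in DU145-Vector, a log2 fold change of −0.65 ± 0.0767, which was 0.38 with the gene length correction and −0.02 with the transcript correction (limma adjusted p = 0.87). PABPC1, which binds poly(A) tails, was lower by a small amount, with a log2 fold change of −0.20 ± 0.0660 (limma adjusted p = 0.0129), which was 0.49 with the gene length correction and −0.22 with the transcript correction (limma adjusted p = 0.00839). Of 8 initiation factor genes 3 were higher (37.5%, against 47.6% of all listed genes) and 5 lower. Their log2 fold changes ran from 0.89 for EIF3G to −1.48 for EIF3A. EPRS and IPO7 had the lowest values, −1.57 and −1.79. EEF1A1 was not analysed here. The GC content was 41.6% to 62.3% (median 50%) for the 15 higher genes and 38.8% to 52.2% (median 44.3%) for the 15 lower genes. The ranges overlapped, and the higher genes had the higher median. With the gene length correction, 21 of the 30 were higher and 4 lower, where 32.8% of all listed genes were higher. With the transcript correction, 15 were higher and 9 lower, where 28.6% of all listed genes were higher. Of the 15 with a TOP start in RefSeq, 9 were higher and 6 lower with the authors' size factors. Of all listed genes 47.6% were higher with these factors.

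**Figure D5:**
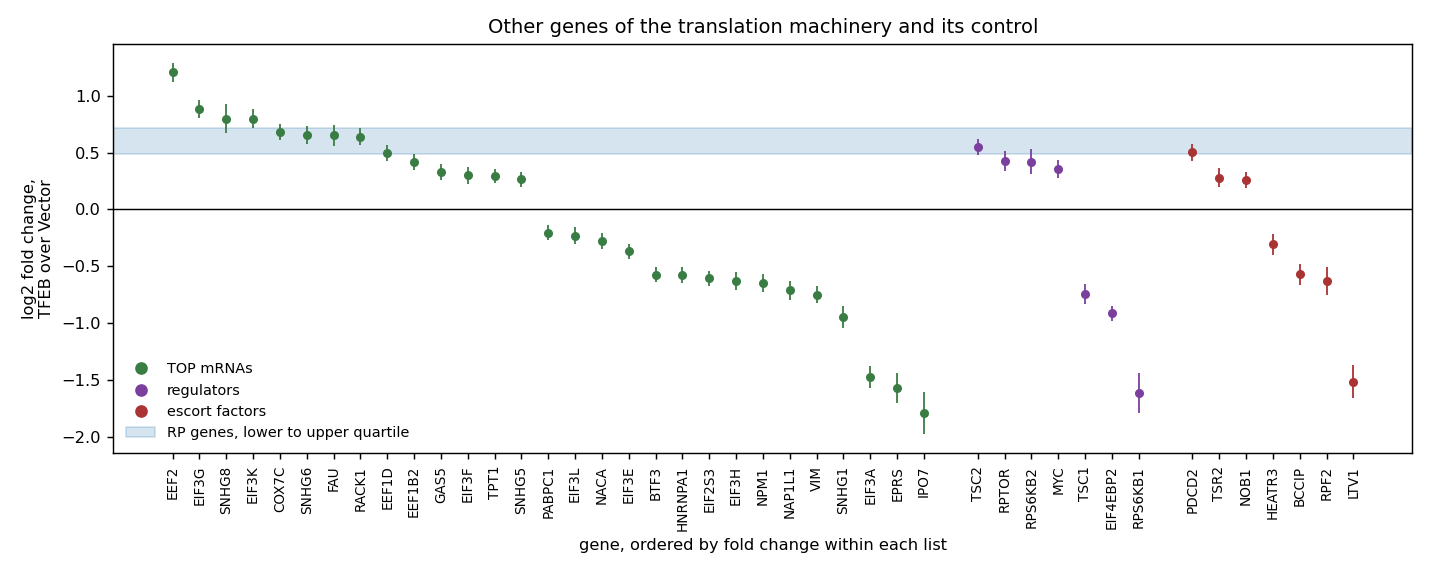
Log2 fold change with standard error (y axis, DU145-TFEB over DU145-Vector, n = 3 libraries per group) of other genes (x axis). Drawn are 29 of the 30 analysed genes of the TOP list, 7 regulators of RP synthesis and 7 escort and assembly factors. The shaded band marks the quartiles of the RP genes, 0.49 to 0.72, and the TOP genes lie on both sides of 0, 14 above and 15 below.

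Of 11 regulators of RP synthesis looked up, 7 were analysed. Of these, 4 were higher (57.1%, against 47.6% of all listed genes) and 3 lower. RPS6KB1, which encodes the main S6 kinase, stood at 351.4, 269.3 and 451.7 normalized counts in DU145-TFEB and 1058, 1241 and 949 in DU145-Vector, a log2 fold change of −1.62 ± 0.178 (limma adjusted p = 2.8e-05). RPS6KB2, its paralog, was higher by 0.42 ± 0.112, and MYC, which drives RP transcription, by 0.35 ± 0.0793. RPS6KB1 had −0.37 with the gene length correction and lost the call with the transcript correction (−0.14, limma adjusted p = 0.148). The directions of RPS6KB2 and MYC turned, to −0.27 and −0.29 with the former and −0.34 and −0.38 with the latter. MTOR and LARP1 were not analysed here. Of 12 escort and assembly factors looked up, 7 were analysed. Of these, 3 were higher (42.9%, against 47.6% of all listed genes) and 4 lower. PDCD2, the escort of RPS2, was the highest with a log2 fold change of 0.50 and LTV1, an assembly factor of the small subunit, the lowest with −1.52, and LTV1 stayed below 0 with the gene length correction (−0.87) and the transcript correction (−0.72).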

How the data were processed

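Libraries of DU145-TFEB (3) and DU145-Vector (3) cells were grouped as labelled. The authors deposited a normalized signal per gene, that is reads divided by 1 size factor per library. The submitters' processing notes name CASAVA 1.8, HISAT2 2.1.0, edgeR and GRCh38, and the paper names DESeq2. The counting program and its use of strand are not given in the sources used here, so overlapping and near-identical genes are uncertain. The authors also deposited group means, log2 fold changes and p-values, which were not used. The table holds only genes selected by these p-values. The positions of all 70 members equal GENCODE 29.

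Reads were recovered from the steps of the signal, and 100% of the values were whole within 0.001. Values of log2(normalized count + 1) were compared with limma 3.58.1 (mean-variance trend, two-sided, no block) in R 4.3.3 over 10542 genes with Benjamini-Hochberg adjustment. Since the table holds normalized values, the recovered reads were tested with DESeq2 1.42.0 and edgeR 4.0.16 as alternatives. The fits were tested on simulated counts. GC content came from GENCODE 29 transcripts, and trends were removed from each library by loess (span 0.5). An exact permutation test of 3 against 3 libraries cannot go below p = 0.1 (two-sided). Libraries of 1 group differed by more than sampling noise (chi-square per gene from 2.96 to 26.6, and 163 to 324 between groups).

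The members and gene lists were chosen with earlier results of these data known. Named genes were the 5 highest and 5 lowest fold changes, the 3 highest and 3 lowest levels per kilobase, paralogs with their partners, and fixed genes of ribosomal parts, TOP mRNAs and regulators. Other genes were named after their values were seen. The 2 alternatives with the principal transcript and without mitochondrial genes were chosen after seeing the data. Levels of RPS4Y1, another member that this rule names and a TOP gene are not reported here.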

Additional observations from a re-analysis of the deposited data

How the results depend on the processing

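The direction of the median of RP genes was the same under every alternative run. With DESeq2 or edgeR on the recovered reads or with a pseudocount of 5, 67 members were higher and 3 lower. The counts were the same with 10 reads required in every library and when scaled to the total of listed reads. Of all listed genes 47.2% to 48.7% were higher under these settings. The replicate numbers did not pair the libraries (correlations of deviations of −0.018, −0.246 and −0.141). With the replicate block the counts were 67 and 3 as well, where 47.1% of all listed genes were higher. The share of listed reads was higher by 3.56 percentage points in DU145-TFEB, and by 4.30 without TFEB and the 20 most abundant other genes. Without the paralogs, 1 gene was lower.

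With size factors of DESeq2 over the listed genes, 1 member was lower, 1 passed the fold change cutoff, and the medians were 0.84 for all members, 0.83 for the large and 0.84 for the small subunit. With TMM factors, 1 member passed the cutoff. Under quantile normalization the medians were 0.31, 0.32 and 0.23, the difference of the subunits 0.094, and the log2 fold changes of RPL10A (−0.11), RPLP0 (−0.064), RPS2 (−0.012), RPS6 (−0.07), RPS7 (−0.02) and RPL22L1 (0.018) turned. Values that turned are named here for genes of the rule only, while over all members 6, 8 and 13 turned under quantile normalization, gene length and transcript correction. With the GC and gene length trend removed, 1 member and 4 TOP genes were lower, 2 members passed the cutoff, and RPL10A (−0.21), RPL8 (−0.11), RPLP2 (−0.092), RPS2 (−0.13), RPL22L1 (0.51) and RPL36AL (0.71) turned. With the principal transcript, 40 members were higher, 5 members and 9 TOP genes lower and 3 members past the cutoff. The medians were then 0.28, 0.36 and 0.16 with a subunit difference of 0.20, and RPL10A (−0.20), RPL12 (−0.016), RPL35 (−0.12), RPL8 (−0.15), RPLP0 (−0.032), RPLP2 (−0.34), RPS2 (−0.18), RPS7 (−0.28), RPL22L1 (0.38) and RPL36AL (0.14) turned. Of the genes named by rule, 3, 5 and 7 kept their direction but lost the call in the same order. The cause was not tested.

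With each library left out in turn, 65 to 67 members were higher and 3 lower, where 46.1% to 47.2% of all listed genes were higher. The subunit difference ran from −0.034 to 0.046, the latter without DU145-Vector library 2. RPL39 lost its call without DU145-TFEB library 1 (limma adjusted p = 0.0552). Depth limits RPL3L and RPL36A, the members under 100 reads.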

Other observations

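Pseudogenes of RP genes, most of them copies of the mRNAs without introns, were listed too. Of 44, 39 were higher in DU145-TFEB (88.6%, against 47.6% of all listed genes) and 5 lower. Their median log2 fold change was 0.68, and it was 0.89 with the gene length correction and 0.31 with the transcript correction. The range was −2.05 for RPL22P12 to 3.52 for RPS12P23, which had at most 11 and 34 reads in a library. The summed signal of the 44 pseudogenes was 4.08% of that of the RP genes in DU145-TFEB and 3.94% in DU145-Vector. For RPL9, 3 pseudogenes held 128% of the signal of the gene itself in DU145-Vector and 134% in DU145-TFEB. For RPL31, 1 pseudogene moved against the gene, from 14.5% of its signal in DU145-Vector to 4.97% in DU145-TFEB. How well the reads of a gene and its copies were separated is not known here.

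Protein-coding neighbours on the opposite strand were listed for 13 members, and 8 of these 15 neighbours were higher and 7 lower. Of all listed genes 47.6% were higher. PIK3C2A, which overlaps RPS13 on the same strand, had a log2 fold change of −1.97 while RPS13 had 0.34. The 55 listed mitochondrial RP genes build the separate ribosome of the mitochondrion. Of these, 41 were higher (74.5%, against 47.6% of all listed genes) and 14 lower. Their median was 0.41 on the log2 scale, 0.13 with the trend of GC content and gene length removed and −0.04 with that of GC content and principal transcript length.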
